A study of Mus musculus with 6 samples.

Results

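The genes described here are the host genes of liver circRNAs that take part in detoxification and bile transport, and 54 of the 3468 host genes in the series belong to them. A host gene was included if the authors' table assigned it to at least 1 of 6 KEGG pathways, which are xenobiotic metabolism by cytochrome P450, drug metabolism by cytochrome P450, drug metabolism by other enzymes, retinol metabolism, bile secretion and ABC transporters. Host genes that also carried 1 of 2 lipid metabolism GO terms or 1 of 10 amino acid pathways were left out, which removed 11 host genes. The rule uses no measured value, although it was drawn up with earlier results of these data known. The 54 genes gave rise to 151 of the 7469 listed circRNAs and to 841 back-spliced reads.

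Livers of C57BL/6J mice aged 12 weeks were compared between 3 mice fed a high-fat diet (HFD) and 3 mice fed a low-fat control diet (LFD), to learn which circRNAs differ in diet-induced obesity. The mice were male and fasted before collection, according to the study's methods. Total RNA was depleted of ribosomal RNA, and the methods also state a digestion with RNase R, which degrades linear RNA and spares circles, while the sample labels name the ribosomal depletion only. The measured quantity was the number of back-spliced reads, which span the junction where the 3′ end of an exon is joined to the 5′ end of the same or an upstream exon. A library held between 5384 and 6590 back-spliced reads in all, so that 3 reads in a single library corresponded to between 0.0455% and 0.0557% of it. A sum of 3 reads over the libraries of a diet, which is a smaller share of their reads, was taken here as the smallest signal told from none. Intervals and this floor cover counting error only.

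The liver clears foreign compounds and spent hormones in stages. Phase 1 enzymes such as the cytochromes P450 and the flavin monooxygenases add or expose a polar group, phase 2 enzymes attach a conjugate such as glucuronic acid or glutathione, and ABC transporters use ATP to move the products into bile or blood. Hepatocytes also take bile acids and organic anions up from blood through carriers such as Slc10a1 and Slco1b2, and ion transporters set the flow of bile. CircRNAs of such genes are formed from their primary transcripts, and most contain internal coding exons. Reads of cell type marker host genes were counted without a test. Of the hepatocyte markers, 8 of 8 had reads, with 23, 9 and 12 reads summed in HFD replicates 1, 2 and 3 and 13, 6 and 28 in LFD replicates 1, 2 and 3. The highest sums were those of HFD replicate 1 and LFD replicate 3, the libraries that the study's sequencing statistics place in a higher class of base quality (Q30). Of the markers of cholangiocytes, the cells that line the bile ducts, 0 of 6 had reads. For the other cells, 2 of 6 Kupffer cell markers, 3 of 6 endothelial, 1 of 6 stellate and 1 of 4 lymphocyte markers had reads, with at most 5 reads in a library. In LFD replicate 2, Kupffer cell markers had 3 reads and endothelial markers 4, beside the 6 of hepatocyte markers. Such counts are too few to establish the cell identity of a library or the absence of a cell type.

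Junctions of circles from Dpyd, Abcc2, Abca1, Abcd3, Slco1b2, Fmo5 and Cyp3a25 are shown first. A circRNA is told from the linear mRNA of its host gene by the junction alone. The list is a choice and leaves out circles with more reads than some of those shown. One of these is mmu_circ_0000870 of Kcnn2, with 26 reads against 14 for circRNA997 of Cyp3a25. In each line the 30 bases that end the circle are in capitals and the 30 bases that begin it are in lower case, both on the strand of the gene, so that the back-splice lies at the change of case. The sequences were read from the GENCODE M21 transcripts (GRCm38).
Dpyd mmu_circ_0001163: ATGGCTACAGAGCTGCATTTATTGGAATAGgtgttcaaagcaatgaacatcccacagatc
Dpyd mmu_circ_0010392: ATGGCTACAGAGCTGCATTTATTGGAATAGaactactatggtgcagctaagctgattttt
Abcc2 circRNA616: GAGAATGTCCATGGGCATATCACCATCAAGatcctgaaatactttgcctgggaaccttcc
Abca1 mmu_circ_0011676: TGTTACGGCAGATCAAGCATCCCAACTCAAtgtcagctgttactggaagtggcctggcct
Abca1 circRNA1019: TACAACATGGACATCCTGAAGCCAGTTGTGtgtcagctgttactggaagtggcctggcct
Abcd3 circRNA1663: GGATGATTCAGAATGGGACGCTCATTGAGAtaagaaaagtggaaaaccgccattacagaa
Slco1b2 circRNA881: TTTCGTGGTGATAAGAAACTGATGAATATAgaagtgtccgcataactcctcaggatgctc
Slco1b2 circRNA878: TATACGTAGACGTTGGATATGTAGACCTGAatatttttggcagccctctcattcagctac
Slco1b2 circRNA880: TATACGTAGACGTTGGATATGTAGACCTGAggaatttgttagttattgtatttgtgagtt
Fmo5 circRNA1130: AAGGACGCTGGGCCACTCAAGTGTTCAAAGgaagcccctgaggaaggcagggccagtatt
Cyp3a25 circRNA997: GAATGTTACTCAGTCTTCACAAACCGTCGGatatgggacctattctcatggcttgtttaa
The Dpyd circles end on exon 8 of the gene (chr3:118797348-118811267 for mmu_circ_0001163 and chr3:118781836-118811267 for mmu_circ_0010392), so their capitals are the same and their lower-case parts, which belong to exons 6 and 5, differ. The pair from Abca1 begins on exon 3 (chr4:53127597-53133015 for mmu_circ_0011676 and chr4:53107006-53133015 for circRNA1019) and therefore shares its lower-case part. Of the Slco1b2 circles, circRNA878 (chr6:141648489-141657606) and circRNA880 (chr6:141652443-141657606) end together on exon 8, and circRNA881 (chr6:141663578-141672313) holds the following exons, 9 to 12. The remaining junctions are those of Abcc2 exons 12 to 16 (chr19:43810471-43814814), Abcd3 exons 2 to 4 (chr3:121791735-121796485), Fmo5 exons 3 to 7 (chr3:97635511-97645920) and Cyp3a25 exons 2 to 4 (chr5:145998487-146003124). The Abcd3 entry is listed 1 base short of the annotated end of exon 4, at position 121791734. Its capitals therefore lack the last base of that exon. All of these stretches are coding.

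For 126 junctions of the 129 exonic circRNAs of these genes, the 30 bases on each side were looked up in all annotated transcripts (3 junctions were not looked up). In 116 of them neither side occurred in a transcript of another gene. Both sides occurred in other genes for 3 junctions, of which 2 belong to Cyp3a25 and 1 to Ugt1a7c. For Cyp3a25 circRNA997 the capitals also stand in Cyp3a57 and the lower-case bases in Cyp3a59, and for Ces1c circRNA1543 the capitals also stand in Ces1b. No single other gene held both sides of circRNA997 or of circRNA1543, whereas Ugt1a6a and Ugt1a6b held both sides of the Ugt1a7c junction. Whether reads of these junctions stem in part from the neighbouring genes was not tested, and their assignment to the gene is uncertain.

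Together the 54 genes held 125, 151 and 158 back-spliced reads in HFD replicates 1, 2 and 3, and 149, 148 and 110 in LFD replicates 1, 2 and 3. As a share of all back-spliced reads of the library this was 1.95% (95% exact binomial interval 1.62% to 2.32%), 2.29% (1.94% to 2.68%) and 2.63% (2.24% to 3.07%) on the HFD. On the LFD it was 2.77% (2.35% to 3.24%), 2.68% (2.27% to 3.14%) and 1.75% (1.44% to 2.10%). The diets overlapped, and the lowest shares were those of LFD replicate 3 and HFD replicate 1, the libraries of the higher Q30 class. In the 4 other libraries the HFD lay below the LFD without overlap, by 0.26 percentage points in the mean, and with 2 libraries per diet this was not tested. The same pair of libraries had the lowest counts of Abca1 and Kcnn2, shared the lowest count of Cyp2c70 and had the highest counts of Slco1b2 and Upp2. These genes were picked after their values were seen. The others of the 15 genes with the most reads did not have this pair at the bottom or the top. The part of base quality in these values was not tested. The mean share was 2.29% ± 0.342 (SD, n = 3) on the HFD and 2.40% ± 0.564 (SD, n = 3) on the LFD, and the difference did not reach the SD of a single diet (exact permutation test over 20 arrangements, two-sided, p = 0.8). The smallest p that this design allows is 0.1. A library contained 46, 47 and 43 of the 151 circRNAs on the HFD and 45, 42 and 40 on the LFD, or 45.3 ± 2.08 against 42.3 ± 2.52 (SD, n = 3; two-sided exact permutation test, p = 0.2). Without Dpyd the direction of that difference turned, to 0.667 fewer circRNAs on the HFD (exact permutation test, p = 0.9). In bulk tissue, fewer cells that make a circRNA and less of it per cell cannot be told apart.

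The reads were concentrated in few genes. The 5 genes with the most reads, Dpyd, Abcc2, Abca1, Slco1b2 and Abcd3, held 52.0% of the 841 reads, and the first 15 held 85.0%. Among the 54 genes, 25 (46.3%) had reads in a single library, against 47.1% of all host genes, and 12 (22.2%) had reads in all 6 libraries, against 9.75% of all host genes. At the level of circRNAs, 109 of 151 (72.2%) were found in a single library and 7 were found in all 6. By role, 13 ABC transporters held 335 reads, 10 enzymes of drug hydrolysis and nucleotide drugs held 208, 7 bile uptake and ion transport genes held 139, and 11 phase 1 enzymes held 118. The phase 2 enzymes, with 7 genes and 25 reads, the retinol enzymes, with 3 genes and 8 reads, and the signalling genes of bile secretion, with 3 genes and 8 reads, were scarcely represented. Each gene was given a single role. The whole KEGG pathway of retinol metabolism, which includes Cyp3a25 and Cyp2c70 of phase 1, held 14 genes and 103 reads. Reads are counts at back-splice junctions, summed over the circles of a gene. Their order gives the weight of evidence, and it was not tested as an order of abundance.

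**Figure D1:**
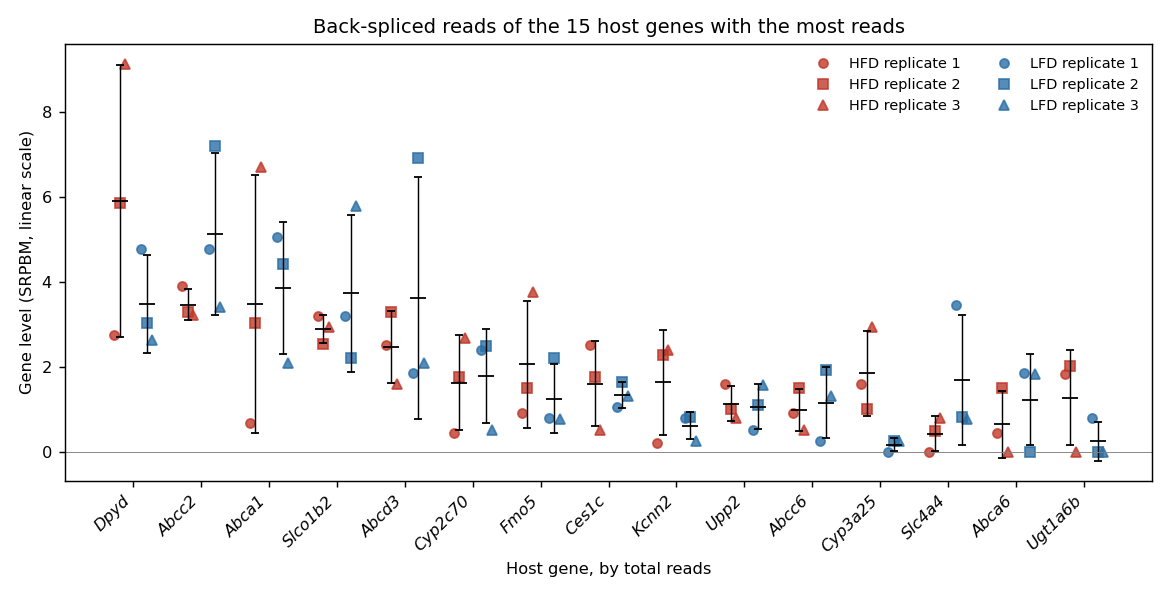
Level of the 15 genes with the most reads in each library, as SRPBM (back-spliced reads scaled by the authors to the mapped reads of the library) on a linear axis, with HFD libraries in red, LFD libraries in blue and black bars for the mean ± SD of 3 libraries. The diets overlap for all genes shown except Cyp3a25, with 7, 4 and 11 reads on the HFD and 0, 1 and 1 on the LFD.

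Phase 1 oxidation held the only gene that passed the thresholds between the diets. Cyp3a25 belongs to the CYP3A family of cytochromes P450, which oxidize many drugs and steroids. Its circRNAs had 7, 4 and 11 reads in HFD replicates 1, 2 and 3, and 0, 1 and 1 reads in LFD replicates 1, 2 and 3. Every HFD library lay above every LFD library, at 1.86 ± 0.993 SRPBM against 0.180 ± 0.156 SRPBM (SD, n = 3). The log2 fold change was 3.12 (SE 1.26, edgeR quasi-likelihood test, unadjusted p = 0.0134), and it failed the correction over all 1834 host genes tested (Benjamini-Hochberg adjusted p = 0.799). With 2 reads in the whole LFD group, the ratio of summed reads per library total was 9.95 with a 95% counting interval from 2.45 to 87.3. The circle circRNA997 carried 14 of the 24 reads, with 5, 3 and 4 on the HFD and 0, 1 and 1 on the LFD. The 4 other circles, drawn from exons 4 to 11 of a transcript of 12 exons, were found on the HFD only and each in a single library. The call was lost without HFD replicate 3, which had the most reads (log2 fold change 2.72, unadjusted p = 0.0943 by edgeR), and within the 4 libraries of lower base quality (3.47, unadjusted p = 0.0532 by edgeR), and so it was for circRNA997 taken alone (log2 fold change 2.27, unadjusted p = 0.217 by edgeR). The capitals of the circRNA997 junction are shared with Cyp3a57 and its lower-case bases with Cyp3a59, as given above.

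Taken over all tests, 29 of the 54 genes had reads in at least 2 libraries and were tested, and 1 of them, Cyp3a25, passed p under 0.05 with a log2 fold change of at least 1. The background is 2.34%, with 43 of 1834 host genes called (23 higher and 20 lower on the HFD; 16 of 60 were higher without LFD replicate 1, 10 of 29 in the lower Q30 class and 37 of 56 among genes with reads in at least 3 libraries), so that 1 in 29 (3.45%) is near the background. By role, 1 of 5 tested phase 1 genes passed, and 0 of 9 ABC transporters, 0 of 6 enzymes of drug hydrolysis and nucleotide drugs, 0 of 4 uptake and ion transport genes, 0 of 2 retinol enzymes, 0 of 2 signalling genes and 0 of 1 phase 2 enzymes. Not overlapping in SRPBM was again Cyp3a25 alone, against 6.22% of all host genes tested. For the 28 other genes the unadjusted p lay between 0.0680 and 0.962. The median log2 fold change was -0.09 over the 26 tested genes with reads on both diets and -0.09 over the 1554 such host genes of the series, and 12 of the 26 were above 0. Bco1, Rdh11 and Prkaca were tested with all reads on 1 diet and no more than 3 reads each, and no fold is given for them. The remaining 25 genes, with 1 to 5 reads, were not tested. Of the 151 circRNAs 42 were tested singly, and 0 passed by edgeR, beside a background of 2.35% (48 of 2041). At an unadjusted p under 0.05 the number was also 0, the smallest p being 0.0981 for circRNA5343 of Abca1.

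**Figure D2:**
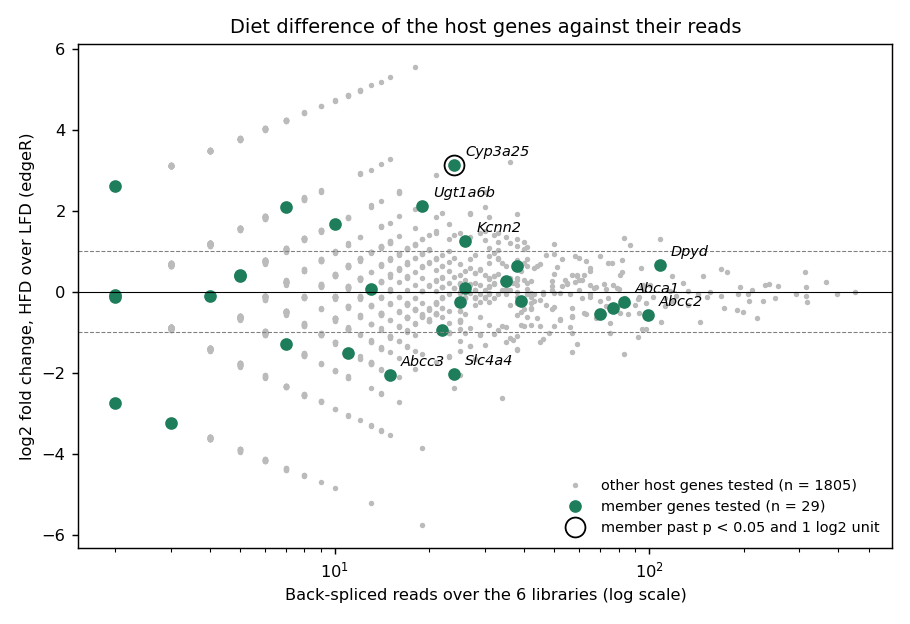
Log2 fold change of the HFD over the LFD by edgeR (vertical axis) against the back-spliced reads of a host gene over the 6 libraries (horizontal axis, log scale), with the 29 tested genes of detoxification and bile transport in green and the 1805 other tested host genes in grey. The dashed lines mark 1 log2 unit, and the ring marks Cyp3a25 at 24 reads and 3.12, while Dpyd, Abcc2 and Abca1, with 108, 99 and 83 reads, lie within 1 unit of 0.

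The 4 other phase 1 genes tested did not pass, and 6 were not tested. Cyp2c70, the P450 that makes muricholic acids in mice, had 2, 7 and 10 reads on the HFD and 9, 9 and 2 on the LFD, so that the lowest value of each diet was the same. Its 4 circles all begin on exon 4 (position 40167623 of chromosome 19) and end on exon 7, on exon 8 or inside exon 9, the last exon. The circle with the most reads, circRNA2990 (chr19:40153520-40167623), had 0, 5 and 8 reads on the HFD and 0, 3 and 2 on the LFD. Its end lies at no annotated exon boundary. Fmo5, a flavin monooxygenase, had 4, 6 and 14 reads on the HFD and 3, 8 and 3 on the LFD, and 33 of its 38 reads came from circRNA1130. In HFD replicate 3 all 14 Fmo5 reads were of this circle. Its log2 fold change of 0.63 (SE 0.86) was smaller than its error. Smaller counts were found for Cyp2f2, with 5 reads, Cyp2c50, with 3 reads in LFD replicate 2 alone, and 6 further P450 and flavin monooxygenase genes with 1 or 2 reads each.

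Few circles came from the enzymes of conjugation. Ugt1a6b, a UDP-glucuronosyltransferase, had 8, 8 and 0 reads on the HFD and 3, 0 and 0 on the LFD, and all 19 reads came from 1 intronic circle (ciRNA316). The end of this circle is an exon end of Ugt1a6a and Ugt1a7c. Junctions of intronic circles were not looked up in other genes, so its assignment to Ugt1a6b is uncertain. HFD replicate 3 at 0 lay with LFD replicates 2 and 3, and the log2 fold change of 2.11 (SE 1.32) did not pass by edgeR (unadjusted p = 0.109). It passed without HFD replicate 3 (2.69, unadjusted p = 0.0410 by edgeR). Without LFD replicate 1 all reads were on the HFD, so no fold is given, and it did not pass (unadjusted p = 0.0673 by edgeR). Without any other single library the log2 fold change lay between 1.53 and 1.75 and did not pass. The 6 other genes, Gsta3, Gstk1, Gstt2, Mgst1, Ugt1a7c and Ugt2b36, which encode glutathione transferases and glucuronosyltransferases, had 1 read each.

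Among the enzymes of drug hydrolysis and nucleotide drugs, Dpyd had the most reads of all 54 genes. It encodes dihydropyrimidine dehydrogenase, which starts the breakdown of uracil and thymine and inactivates fluorouracil. Its reads numbered 12, 23 and 34 on the HFD and 18, 11 and 10 on the LFD. HFD replicates 2 and 3 were the highest of all, while HFD replicate 1 lay among the LFD libraries, and the log2 fold change of 0.66 (SE 0.53) did not pass (unadjusted p = 0.211 by edgeR). It moved to 0.26 without HFD replicate 3 and to 1.01 without LFD replicate 1, and passed in neither case. Dpyd also had the most circles, 19 over exons 2 to 18, or 17 if entries with starts 1 bp apart are counted once. Of these 4, 8 and 10 were detected in HFD replicates 1, 2 and 3, and 5, 5 and 1 in LFD replicates 1, 2 and 3. The number of circles and the number of reads were both highest in HFD replicates 2 and 3. The circles ending on exon 8 held 66 of the 108 reads. The most frequent of them, mmu_circ_0001163, had 0, 6 and 13 reads on the HFD and 5, 5 and 10 on the LFD, so it had no read in HFD replicate 1 and made up all Dpyd reads of LFD replicate 3. The intron after exon 8 spans 85826 bases.

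**Figure D3:**
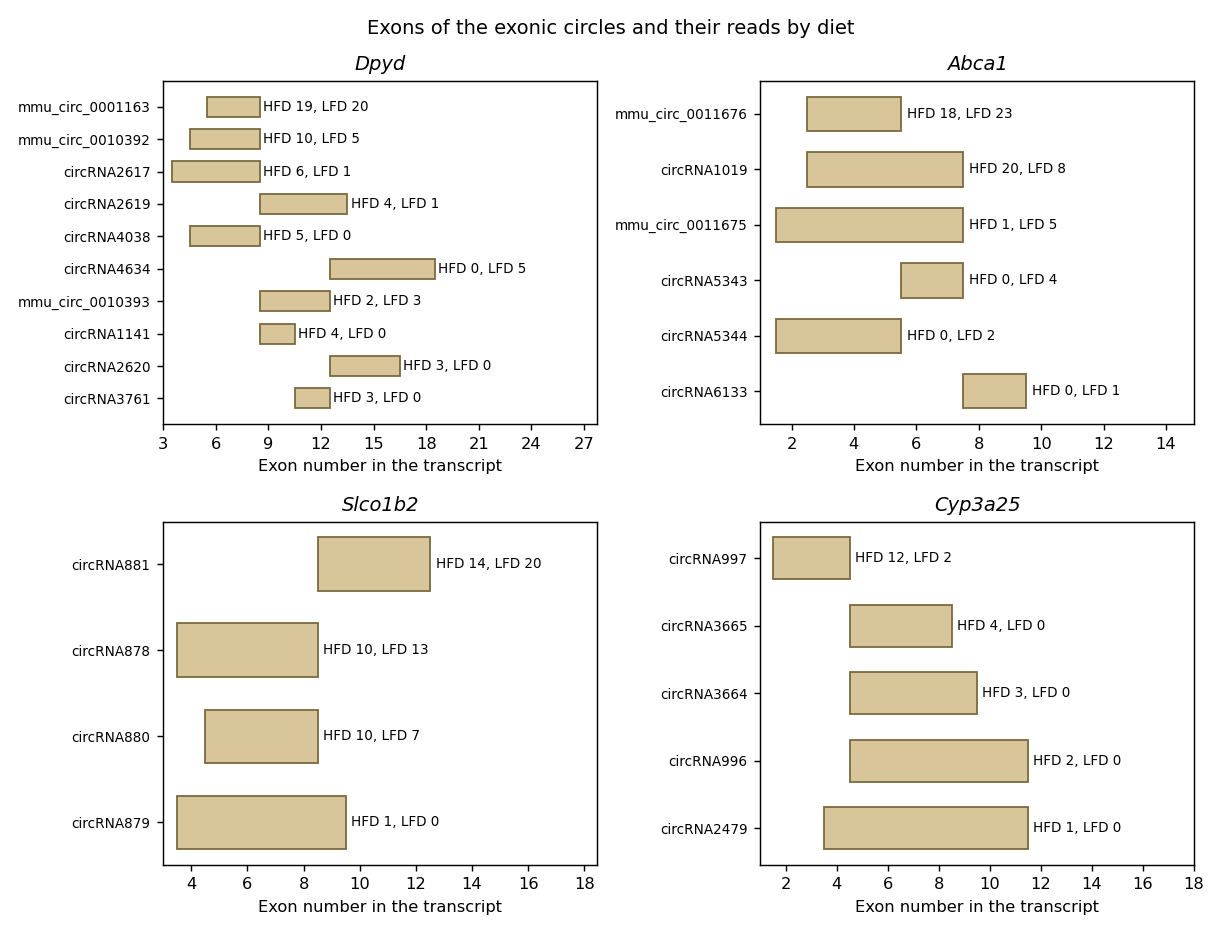
Exonic circles of Dpyd (the 10 with the most reads), Abca1, Slco1b2 and Cyp3a25, each drawn as a bar over the exons it holds (horizontal axis, exon number in the transcript), with its reads summed over the 3 HFD and the 3 LFD libraries. Circles of a gene share ends, such as exon 8 of Dpyd and exon 3 of Abca1, and the 5 circles of Cyp3a25 had 22 reads on the HFD and 2 on the LFD.

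Ces1c, a carboxylesterase that hydrolyses ester drugs, had 11, 7 and 2 reads on the HFD and 4, 6 and 5 on the LFD. The HFD libraries spanned the LFD libraries on either side. Upp2, a uridine phosphorylase, had 7, 4 and 3 reads on the HFD and 2, 4 and 6 on the LFD, with a log2 fold change of 0.09 (SE 1.02). Xdh, which forms uric acid, had 13 reads with at most 3 in a library. Cda, a cytidine deaminase, had 3 reads in HFD replicate 2 and 8 in LFD replicate 1, all from the intronic circle ciRNA459, and Dpys, which acts after Dpyd in pyrimidine breakdown, had 10 reads in 3 libraries. None of these 3 passed the test. Uck2 had 2 reads, and Ces1e, Cmpk1 and Gmps had 1 read each.

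ABC transporters gave the largest number of reads. Abcc2, which exports conjugates from the hepatocyte into bile, had 17, 13 and 12 reads on the HFD and 18, 26 and 13 on the LFD. The HFD libraries were close to each other at 3.48 ± 0.369 SRPBM and the LFD libraries lay at 5.14 ± 1.91 SRPBM (SD, n = 3), with a log2 fold change of -0.58 (SE 0.54, unadjusted p = 0.287 by edgeR). It was -0.98 (unadjusted p = 0.0457 by edgeR, under the fold threshold) when only the 4 libraries of lower base quality were fitted and -0.28 without LFD replicate 2. Circle circRNA616, exons 12 to 16, was present in every library with 7, 12 and 6 reads on the HFD and 9, 19 and 10 on the LFD. Most of its other reads came from a circle of exons 5 and 6 that is listed in a pair of entries described further on.

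Abca1, which loads cholesterol and phospholipid onto apolipoprotein A-I, had 3, 12 and 25 reads on the HFD and 19, 16 and 8 on the LFD. The lowest and the highest library were both HFD libraries. Its circle of exons 3 to 5, mmu_circ_0011676, had 1, 7 and 10 reads on the HFD and 10, 10 and 3 on the LFD. The longer circRNA1019, exons 3 to 7, had 2, 5 and 13 reads on the HFD and 5, 3 and 0 on the LFD. Neither circle passed the test. Summed over libraries, the shorter circle had 18 reads on the HFD and 23 on the LFD, and the longer 20 and 8; the difference between these was not tested. Abcd3, a peroxisomal transporter of fatty acids and bile acid precursors, had 11, 13 and 6 reads on the HFD and 7, 25 and 8 on the LFD. The single high library was LFD replicate 2. Of its 6 entries, 5 begin on exon 2 and held 62 of the 70 reads. Among these 5 are circRNA2624 and circRNA5617, a pair with starts 1 bp apart.

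Abcc6 had 25 reads and Abca6 22 reads, each scattered over the diets. Abca6 had 2, 6 and 0 reads on the HFD and 7, 0 and 7 on the LFD, so each diet had a library without a read. Abcc3, which exports conjugates to the blood side, had reads in HFD replicate 2 (3 reads) and in LFD replicates 1 and 2 (8 and 4 reads), from a single intronic circle. Abcb4, the phospholipid exporter of the bile canaliculus, and Abca8b had 7 reads each. Abcc9, Abcd4, Abcc4, Abcg2 and Abcg5 had 1 or 2 reads.

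In bile uptake and ion transport, Slco1b2, the organic anion carrier of the sinusoidal membrane, had 14, 10 and 11 reads on the HFD and 12, 8 and 22 on the LFD. Except LFD replicate 3, the libraries lay between 8 and 14 reads. Its 3 main circles were seen side by side. The circle of exons 9 to 12, circRNA881, had 6, 3 and 5 reads on the HFD and 5, 6 and 9 on the LFD, and circRNA878, exons 4 to 8, had 4, 3 and 3 on the HFD and 4, 2 and 7 on the LFD. The circle of exons 5 to 8, circRNA880, had 3, 4 and 3 on the HFD and 1, 0 and 6 on the LFD. Each of them was highest in LFD replicate 3. Kcnn2, a potassium channel gated by calcium, had 1, 9 and 9 reads on the HFD and 3, 3 and 1 on the LFD from a circle of a single exon (exon 6). HFD replicates 2 and 3 lay above all LFD libraries and HFD replicate 1 did not, with a log2 fold change of 1.24 (SE 1.06, unadjusted p = 0.241 by edgeR).

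Slc4a4, the sodium bicarbonate cotransporter, had 0, 2 and 3 reads on the HFD and 13, 3 and 3 on the LFD. LFD replicate 1 held 13 of the 24 reads and the other libraries had 3 or fewer. The log2 fold change was -2.02 (SE 1.11) and did not pass (unadjusted p = 0.0680 by edgeR). It passed without HFD replicate 3 (-2.70, unadjusted p = 0.0459 by edgeR), without LFD replicate 2 (-2.33, unadjusted p = 0.0467) and without LFD replicate 3 (-2.38, unadjusted p = 0.0354), and was -0.91 (unadjusted p = 0.543) without LFD replicate 1. These reads were spread over 11 entries, 2 of which are a pair with starts 1 bp apart, none with more than 4 reads and 10 of them found in a single library. Slc10a1, the main bile acid carrier from blood into the hepatocyte, had 5 reads, all in LFD replicate 1, and Scarb1, the HDL receptor, had 5 reads. Slco1a4 had 1 read.

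The genes given the role of retinol enzymes or of bile secretion signalling were near the limit of counting. This does not hold for the whole KEGG pathway of retinol metabolism. That pathway had 14 of the 54 genes and 103 reads, among them those of Cyp3a25, Cyp2c70 and Ugt1a6b described above. Aldh1a1, which forms retinoic acid, had 3 reads in HFD replicate 2 alone. Rdh11, a retinol dehydrogenase, had 1 read in LFD replicate 1 and 2 in LFD replicate 3, and Bco1, which cleaves beta-carotene, had 1 read in each of HFD replicates 1 and 2. Rxra, the shared partner of the nuclear receptors for bile acids and xenobiotics, had 4 reads from 4 circles. Adcy9 and Prkaca, which form and answer to cyclic AMP, had 2 reads each. At this depth no difference between the diets was detectable for these genes.

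Further nuclear receptors and cofactors of these pathways, outside the 54 genes, were listed apart. Reads were found for 13 of 32 listed genes, 6 were tested and 0 passed. The corepressor gene Ncor1, the only gene of this list with at least 20 reads, had 1, 10 and 11 reads on the HFD and 4, 3 and 4 on the LFD (log2 fold change 0.82, SE 0.92). Of the 11 pathway genes removed by the lipid and amino acid terms, 7 were tested and 1 passed, beside the background of 2.34%. That gene was Cyp2e1, with 0, 1 and 0 reads on the HFD and 7, 0 and 6 on the LFD (log2 fold change -3.43, unadjusted p = 0.0337 by edgeR, Benjamini-Hochberg adjusted p = 0.799). Of the others, Nr1h4, the bile acid receptor FXR, had 17, 26 and 27 reads on the HFD and 14, 12 and 22 on the LFD (log2 fold change 0.39, SE 0.50), more than any of the 54 genes. The aldehyde oxidase gene Aox3 had 13, 6 and 6 reads on the HFD and 3, 0 and 3 on the LFD (log2 fold change 1.85, unadjusted p = 0.0646 by edgeR). The choice of these 3 genes was made with their values in view. With these 11 genes included, the share of back-spliced reads was higher on the HFD by 0.0308 percentage points (exact permutation test, p = 0.8), so the sign of this difference turned with the exclusions.

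The exonic circles were somewhat longer than those of the series as a whole. Their median spliced length was 474 bases and their median exon number 4, against 399 bases and 3 exons over all exonic circRNAs. They began on exon 2 in 18.9% of cases against 28.1%, and consisted of coding sequence only in 90.6% of cases against 83.5%. The median of the mean flanking intron was 6426 bases against 7528. A circRNA database name was carried by 9 of 129 (6.98%), against 32.8% of all exonic circRNAs. The share found in a single library was nearly the same, 69.8% against 69.9%. Circles of a gene share exons and are not independent, and these figures are descriptions without a test.

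Several circles were listed as a pair of entries with the same end and starts 1 bp apart. There were 9 such pairs in 8 of the genes, and they held 143 of the 841 reads (17.0%, against 14.3% over all listed circRNAs). The junctions of a pair from Abcc2 (exons 5 and 6, chr19:43798407-43799145 and chr19:43798408-43799145) and from Ces1c (exons 8 to 12, chr8:93100654-93108573 and chr8:93100655-93108573) show what separates the entries, a single base at the junction.
Abcc2 circRNA615: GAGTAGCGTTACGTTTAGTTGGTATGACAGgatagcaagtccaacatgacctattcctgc
Abcc2 circRNA4013: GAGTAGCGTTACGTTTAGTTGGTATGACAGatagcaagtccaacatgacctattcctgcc
Ces1c circRNA1543: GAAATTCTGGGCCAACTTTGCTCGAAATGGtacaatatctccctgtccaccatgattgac
Ces1c circRNA6421: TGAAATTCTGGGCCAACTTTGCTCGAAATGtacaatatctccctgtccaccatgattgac
In the Abcc2 pair the first lower-case base is missing from circRNA4013, and in the Ces1c pair, whose gene lies on the minus strand, the last capital base is missing from circRNA6421. The spliced lengths are 164 and 163 bases for Abcc2 and 575 and 574 bases for Ces1c. Entry circRNA615 had 10, 0 and 0 reads on the HFD and 8, 4 and 2 on the LFD, while circRNA4013 had its 6 reads in HFD replicate 3. Entry circRNA1543 had 10, 6 and 2 reads on the HFD and 4, 6 and 0 on the LFD, while circRNA6421 had its 5 reads in LFD replicate 3. Over the 9 pairs, 38 combinations of pair and library had reads, and in 0 of them did both entries have reads. Read as separate circRNAs, circRNA615 was called as lower on the HFD without HFD replicate 1, although its partner had 6 reads in HFD replicate 3. With the entries of a pair summed, 142 circRNAs remained and 0 passed. The sums per gene do not depend on how the reads of a pair were listed.

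**Figure D4:**
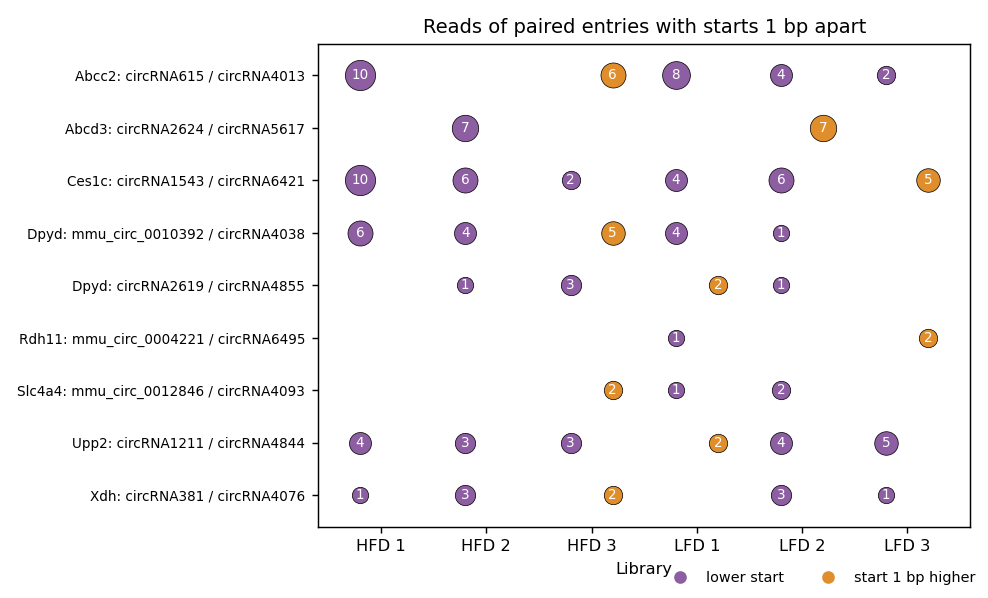
Reads of the 9 pairs of entries with starts 1 bp apart in each library, with the entry of lower start in purple, the entry whose start is 1 bp higher in orange, and the read number in each point. No library has reads of both entries of a pair, as in Ces1c, where LFD replicate 3 has 5 reads of circRNA6421 and the 5 other libraries have reads of circRNA1543 only.

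Intronic circles made up 22 of the 151 circRNAs and 68 of the 841 reads (8.09%, against 6.57% over the series). An intronic circle of the lariat type begins at the 5′ splice site and ends at the branch point, which lies shortly before the 3′ splice site. Of the 22, 20 began exactly at an annotated 5′ splice site, and 16 of these ended within 50 bases of the 3′ splice site, with a median distance of 27.5 bases over the 20. The Abcc3 circle ciRNA359 (chr11:94364137-94364351) was of this kind, in an intron of 243 bases, with its end 28 bases from the 3′ splice site. In contrast, ciRNA412 of Abcb4 and ciRNA518 of Cyp2f2 ended 1 base from the 3′ splice site and spanned nearly the whole intron. The 2 circles that did not begin at a 5′ splice site were ciRNA316 of Ugt1a6b (chr1:88136077-88139331) and ciRNA459 of Cda (chr4:138351184-138352118). The former lies inside an intron of 107244 bases and its end coincides with an exon end of Ugt1a6a and Ugt1a7c, which share the locus. The latter lies in no annotated intron, and its lower coordinate is the start of a Cda exon. The share of intronic reads was 11.2%, 10.6% and 3.80% on the HFD and 15.4%, 3.38% and 3.64% on the LFD, so it was high in HFD replicates 1 and 2 and LFD replicate 1. Over all circRNAs it was 10.8%, 5.43% and 4.75% on the HFD and 5.01%, 4.56% and 8.28% on the LFD. In HFD replicate 1 the genes were thus near the level of the library, in HFD replicate 2 and LFD replicate 1 above it and in LFD replicate 3 below it. The circles ciRNA316, ciRNA359 and ciRNA459 held 45 of the 68 reads, and the 19 others had 1 or 2 reads each.

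**Figure D5:**
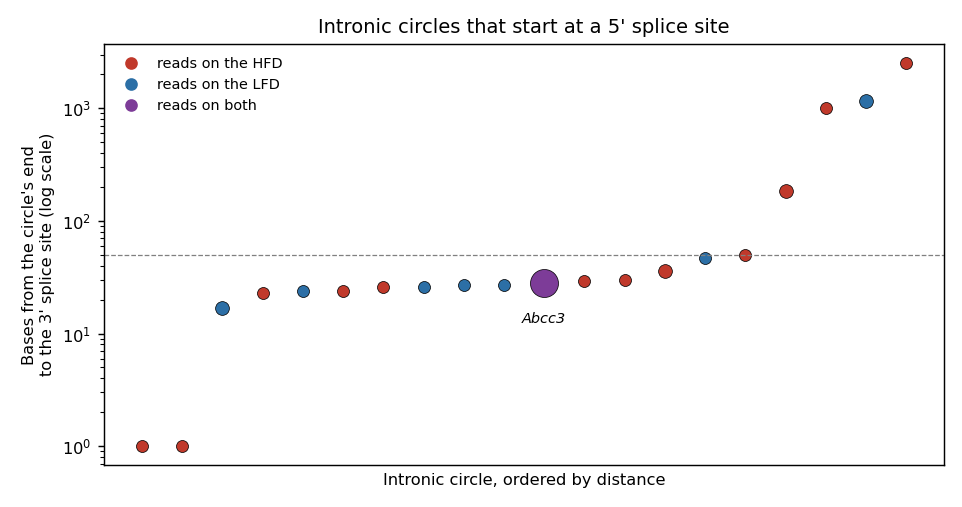
Distance from the end of an intronic circle to the 3′ splice site of its intron (vertical axis, bases, log scale) for the 20 intronic circles that start at a 5′ splice site, ordered by that distance, with point area growing with the reads and colour giving the diets with reads. The dashed line is at 50 bases, and 16 of the 20 circles lie on or below it, the labelled circle of Abcc3 with 15 reads among them at 28 bases.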

How the data were processed

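Liver RNA of 3 HFD mice and 3 LFD mice was grouped by the titles of the libraries. According to the study's methods and the submitters' processing notes, reads were trimmed with cutadapt 1.9 and mapped with Bowtie2, TopHat2 2.0.4 and TopHat-Fusion, and CIRCExplorer2 and CIRI served to find circRNAs. The authors deposited the whole-number count of back-spliced reads per circRNA and library, without normalization. They also deposited a signal, SRPBM, which equals the count times 1 factor per library. The notes list mm9, but 87.8% of exonic starts and 97.5% of ends fell on exon boundaries of GENCODE M21, so coordinates are given as GRCm38, 1-based. Exon numbers are those of a GENCODE transcript that holds both ends.

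Counts were summed per host gene. Features present in 2 or more libraries, host genes and separately circRNAs, entered the edgeR quasi-likelihood test (TMM, no covariate) over the whole table, with calls at p under 0.05 before adjustment and a log2 fold change of 1 or more in either direction, and Benjamini-Hochberg values over all features tested beside them. Common dispersion was 0.562 for genes and 1.167 for circRNAs. The host gene test was tried on simulated counts, and the circRNA test was not. At a simulated dispersion of 0.5, lower than that of the data, it called 29.1% of 4-fold and 57.4% of 8-fold changes. Of the unchanged genes in these 2 settings it called 3.84% and 4.40%. Many differences of this size would thus not pass. Library totals were set against each other by exact permutation tests (two-sided). The alternatives were DESeq2, limma on log2(SRPBM + 0.25) and log2(SRPBM + 1), the edgeR exact test, other filters, no TMM, the replicate number or a Q30 class as a term, exonic circRNAs only, summed pairs, other gene sets and each library left out. The Q30 class (HFD replicate 1 and LFD replicate 3 higher) is from the study's sequencing statistics. The methods give 3 livers per diet, and p-values measure the spread between these 6 libraries. No pair of replicates agreed within sampling noise. Same-numbered libraries did not deviate together (correlations between -0.09 and 0.07 over 1834 genes), so numbers were not taken as pairs.

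The genes, role lists and marker lists were chosen with earlier results of these data known. Cyp4a32 was added to the phase 1 list later. Named genes were the 15 with the most reads, those past the thresholds for the gene or any of its circRNAs, the 2 with the most reads in each role list (ties named together) with the circle of most reads, and regulators with at least 20 reads. Other genes were named to account for the members or after their values were seen. Measurements other than the circRNA table were not used here, and the values of some genes are not reported here. Python 3.11.15 (SciPy 1.17.1, pandas 2.3.3, matplotlib 3.10.9, NumPy 2.4.6) and R 4.3.3 (DESeq2 1.42.0, limma 3.58.1, edgeR 4.0.16) were used.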

Additional observations from a re-analysis of the deposited data

How the results depend on the processing

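The depth, at most 108 reads for a gene over 6 libraries, limits every comparison here, and the 25 genes with reads in a single library entered only the fit without a filter, where Cyp3a25 was again the 1 gene called. The call of Cyp3a25 as higher on the HFD was kept in 15 of 17 alternative fits of the summed gene and had a positive sign in all 17, with adjusted p between 0.591 and 1.0. It was lost without HFD replicate 3 and in the lower Q30 class (4 libraries), where 0 genes of the 54 were called (unadjusted p = 0.0532 for Cyp3a25 by edgeR). With each library left out, 1 to 2 of the 54 genes were called, the second being Slc4a4 without LFD replicate 2 or 3, and Slc4a4 and Ugt1a6b in place of Cyp3a25 without HFD replicate 3. Of the circRNAs tested singly, 1 was called with limma on log2(SRPBM + 0.25) (circRNA997 of Cyp3a25) and 1 in the lower Q30 class (circRNA615 of Abcc2), and between 0 and 1 with each library left out, circRNA615 without HFD replicate 1 and ciRNA316 without LFD replicate 1. The causes were not tested.

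With the replicate number as a block, Cyp3a25 had a log2 fold change of 3.11 (unadjusted p = 0.0345 by edgeR), 1 gene and 0 circRNAs of the set were called, the share differed by -0.11 percentage points (exact sign-flip test, p = 1.0) and the number of circRNAs by 3.0 (p = 0.25). With 3 libraries per diet, 0.25 is the smallest p that the sign-flip test allows. The block lowered the calls over all host genes from 43 to 14 and over all circRNAs from 48 to 10. No pairing of the mice by number is stated in the labels or the methods, and HFD replicates 1 and 3 correlated best with an LFD library of another number. The largest correlation was 0.18, between HFD replicate 1 and LFD replicate 3, the libraries of the higher Q30 class. Over all host genes, the calls numbered 72 with limma and a pseudocount of 0.25, 17 with a pseudocount of 1, 24 with the exact test, 27 with the Q30 class and 26 to 60 with each library left out. Over all circRNAs they numbered 79, 20, 12 and 19 in the same order, 13 with DESeq2, 17 in the lower Q30 class and 20 to 48 with each library left out.

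The difference in share turned to 0.0308 percentage points without the exclusions of the rule and lay between -0.43 and 0.0777 with each library left out, and was -0.26 in the lower Q30 class, and that in the number of circRNAs turned to -0.67 without Dpyd. Among genes that did not pass, the log2 fold change of Ces1c turned to -0.32 in the lower Q30 class. With each library left out it ranged from -1.09 to 0.22 for Abca1, -0.64 to 0.043 for Slco1b2, -0.84 to 0.28 for Abcd3, -0.72 to 0.20 for Cyp2c70, -0.039 to 1.27 for Fmo5, -0.31 to 0.71 for Ces1c, -0.33 to 0.46 for Upp2, -0.69 to 0.30 for Abcc6, 0.86 to 1.74 for Kcnn2, -2.18 to -0.37 for Abca6, -0.82 to -0.28 for Abcc2, 0.26 to 1.01 for Dpyd and -0.60 to 0.45 for Rxra. After each library was thinned to the smallest total, the HFD libraries held 1.74 more circRNAs (mean of 50 draws, exact permutation test, p = 0.7). The restriction of Cyp3a25 to circRNA997 was chosen after seeing the data.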
